A study of Mus musculus with 6 samples.

Results

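The genes described here are those of the constitutive proteasome, the protease complex that every cell uses to degrade unwanted proteins. They are the 40 entries, of 55222 in the deposited table, whose symbol is Psma, Psmb, Psmc, Psmd or Psme followed by a number. The 3 immunoproteasome subunits Psmb8, Psmb9 and Psmb10 were left out. The rule uses symbols and no measured value, but the set was chosen with earlier results of these data known. Of the 40 genes, 31 encode subunits of the 26S particle. They are the 7 genes of the alpha ring, 3 catalytic and 4 structural genes of the beta ring, 6 ATPases of the base, 3 base genes for scaffolds and a ubiquitin receptor, and 8 genes of the lid. The others are not constitutive subunits in the strict sense. They are 4 genes of activators (Psme1 to Psme4), 3 chaperones that help assemble the base (Psmd5, Psmd9 and Psmd10), and 2 subunits made mainly in testis (Psma8) and thymus (Psmb11).

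A protein marked with a chain of ubiquitin is bound by the regulatory particle, whose lid removes the chain and whose ring of ATPases unfolds the protein and threads it into the core. The core is a barrel of stacked alpha and beta rings. The alpha rings gate the entrance, and the beta rings carry the sites that cut the protein inside. Activators bind the ends of the core in place of the regulatory particle. In cells whose proteasome is impaired, the transcription factor Nfe2l1 raises the genes of the core and the regulatory particle together, and interferon raises the immunoproteasome subunits and the activator genes Psme1 and Psme2.

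The 6 libraries were made from liver RNA of C57BL/6 mice, 2 for each of 3 groups. Mice of the normal group received neither carbon tetrachloride (CCl4) nor virus. The other groups received CCl4, a solvent that injures hepatocytes and leads to fibrosis, in olive oil at 12.5 ml/kg, injected into the abdomen 2 times weekly. They also received an adeno-associated virus (AAV) into a vein after 1 week of CCl4, either a control virus (AAV-Ctrl) or one whose short hairpin RNA targets Phpt1, a histidine phosphatase (AAV-shPhpt1). Tissue was collected 48 h after the final injection of the solvent. No genotype other than the virus is labelled, and the sources used here do not give the hairpin's promoter or the ages of the animals. By the labels AAV-Ctrl and AAV-shPhpt1 differ in the hairpin alone, whereas CCl4 and virus cannot be told apart in a comparison with normal livers. The labels give 5 mice for each group given virus but do not tie a library to an animal, so p-values measure the spread between these libraries.

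The values imply 21488841 to 24188029 reads per library. Phpt1 itself was close to 0 in every library, at 1 to 5 reads, so whether the hairpin lowered its target was not detectable at this depth. All 10 hepatocyte markers were found, as the liver label requires, and no marker of another cell type was at 0 in both libraries of a group. The AAV-shPhpt1 replicates lay furthest apart, with a log2 SD between replicates of 0.44 over all genes tested, against 0.31 for the normal group and 0.28 for AAV-Ctrl. Of the 40 proteasome genes, 38 passed the filter of a mean of 1 FPKM in at least 1 group. FPKM is a read count scaled to the length of the transcript and to the depth of the library. Each of the 38 was covered by 129 to 5400 reads in each library, as recovered from the values and the mean annotated transcript length. For Psmb5, Psmb7, Psmc4 and Psmd7 the recovered reads were not whole in all libraries, so their reads are approximate.

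The promoters shown are those of the 3 genes that rose in AAV-Ctrl livers (Psmd8, Psmd5 and Psmd10), of the paired activator genes Psme1 and Psme2, and of the catalytic subunit gene Psmb5. Psme1 and Psmb5 were added after their values had been seen. Each sequence is the RefSeq promoter on GRCm38.p6, 250 bases before and 50 after the start of transcription, written 5′ to 3′ along the gene's own strand. The windows are chr7:29180624-29180923 (minus strand) for Psmd8, chr2:34870913-34871212 (minus) for Psmd5, chrX:140956662-140956961 (minus) for Psmd10, chr14:55578244-55578543 (plus) for Psme1, chr14:55591052-55591351 (minus) for Psme2 and chr14:54617946-54618245 (minus) for Psmb5. Psme2 has another listed start nearby, which is not printed. Capitals mark matches on either strand to 3 motifs: the antioxidant response element core TGACNNNGC, the CCAAT box, and the core of the interferon-stimulated response element, GAAA and GAAA with any 2 bases between them. The last motif was added after values had been seen.
Psmd8: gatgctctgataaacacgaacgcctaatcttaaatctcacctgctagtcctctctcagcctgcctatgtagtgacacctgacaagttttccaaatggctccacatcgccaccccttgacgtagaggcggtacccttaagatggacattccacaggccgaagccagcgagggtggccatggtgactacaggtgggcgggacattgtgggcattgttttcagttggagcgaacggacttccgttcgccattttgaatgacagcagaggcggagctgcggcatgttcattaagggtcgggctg
Psmd5: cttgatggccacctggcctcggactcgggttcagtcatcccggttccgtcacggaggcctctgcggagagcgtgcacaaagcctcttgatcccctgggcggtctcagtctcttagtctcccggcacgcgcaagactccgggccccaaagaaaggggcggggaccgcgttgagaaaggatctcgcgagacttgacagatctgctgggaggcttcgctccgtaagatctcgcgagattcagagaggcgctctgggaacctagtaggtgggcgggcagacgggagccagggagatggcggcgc
Psmd10: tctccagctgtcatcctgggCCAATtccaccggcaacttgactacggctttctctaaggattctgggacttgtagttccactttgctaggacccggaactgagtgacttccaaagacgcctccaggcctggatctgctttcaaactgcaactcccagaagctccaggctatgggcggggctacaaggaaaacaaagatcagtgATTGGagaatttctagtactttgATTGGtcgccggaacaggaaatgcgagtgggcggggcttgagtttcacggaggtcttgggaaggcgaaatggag
Psme1: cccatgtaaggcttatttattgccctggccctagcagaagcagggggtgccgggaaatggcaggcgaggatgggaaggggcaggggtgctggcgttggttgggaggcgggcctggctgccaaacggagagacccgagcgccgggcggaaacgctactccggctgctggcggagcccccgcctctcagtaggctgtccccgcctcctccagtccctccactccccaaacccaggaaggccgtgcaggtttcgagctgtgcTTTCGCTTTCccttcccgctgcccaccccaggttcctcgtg
Psme2: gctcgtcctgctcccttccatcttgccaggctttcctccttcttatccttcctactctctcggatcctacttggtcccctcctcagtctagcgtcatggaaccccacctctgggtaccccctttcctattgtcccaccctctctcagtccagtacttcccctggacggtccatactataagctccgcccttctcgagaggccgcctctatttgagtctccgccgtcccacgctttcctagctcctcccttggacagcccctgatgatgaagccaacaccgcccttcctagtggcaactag
Psmb5: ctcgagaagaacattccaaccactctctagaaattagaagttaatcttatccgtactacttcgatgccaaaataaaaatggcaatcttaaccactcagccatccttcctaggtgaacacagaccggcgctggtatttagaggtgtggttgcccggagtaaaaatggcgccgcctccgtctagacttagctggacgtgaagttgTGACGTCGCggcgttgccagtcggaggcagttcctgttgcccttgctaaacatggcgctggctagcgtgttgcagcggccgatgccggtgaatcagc

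In the window of Psmd10 a CCAAT match began 230 bases before the start, and reverse matches, ATTGG, began 47 and 24 bases before it. The window of Psme1 held TTTCGCTTTC, a match to the interferon motif on the other strand, from base 10 after the start. The window of Psmb5 held TGACGTCGC, a match to the antioxidant motif, from 47 bases before the start. None of the 3 motifs was found in the windows shown for Psmd8, Psmd5 and Psme2. A promoter was at hand for 33 of the 40 genes, 36 promoters in all. Of these, 16.7% held the antioxidant core, against 12.4% of 32851 promoters of the same length over the genome. The CCAAT box was found in 36.1% against 37.4%, and the interferon core in 11.1%, which is 4 promoters, against 3.44%. These shares describe letters in short windows and carry no test. The 4 promoters with the interferon core belong to Psmb3, Psmd4, Psmd9 and Psme1. Psme1 and Psme2 lie on chromosome 14 on opposite strands, facing each other, with 5912 bases between their ends.

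All 31 genes of the 26S particle were expressed in every library, within about 1 order of magnitude. Their means over the 6 libraries ran from 190 FPKM for Psmb4, a structural beta subunit, down to 29.7 FPKM for Psma2, an alpha-ring subunit. After Psmb4 came Psmd2, a base scaffold, with 177 FPKM, Psma4 with 149.9 and the ATPase Psmc1 with 148. The lowest before Psma2 were the catalytic subunits Psmb7 with 33.9 FPKM and Psmb5 with 39.9, and, between them, the ATPase Psmc2 with 34.4. The third catalytic subunit, Psmb6, averaged 144 FPKM and was the fifth highest. Neighbours in this order overlapped in their ranges over libraries. Some kept their order within each of the 6 libraries, such as Psmb1 above Psma5. Others, such as Psmc2 and Psmb7, changed places between libraries, so their order is not resolved. The ranges of Psmb4 (170.0 to 213 FPKM) and Psma2 (26.8 to 33.2 FPKM) were far apart. The deposited values scale with a mean over the transcripts annotated for each gene, a length less certain for Psmb5, Psmb7, Psmc4 and Psmd7. With the longest annotated transcript as the length instead, Psmb6 became the highest at 115 FPKM and Psma2 stayed the lowest at 21.7 FPKM. Levels of genes whose products are present in equal numbers in the particle therefore differed several-fold at the RNA level on either length.

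**Figure D1:**
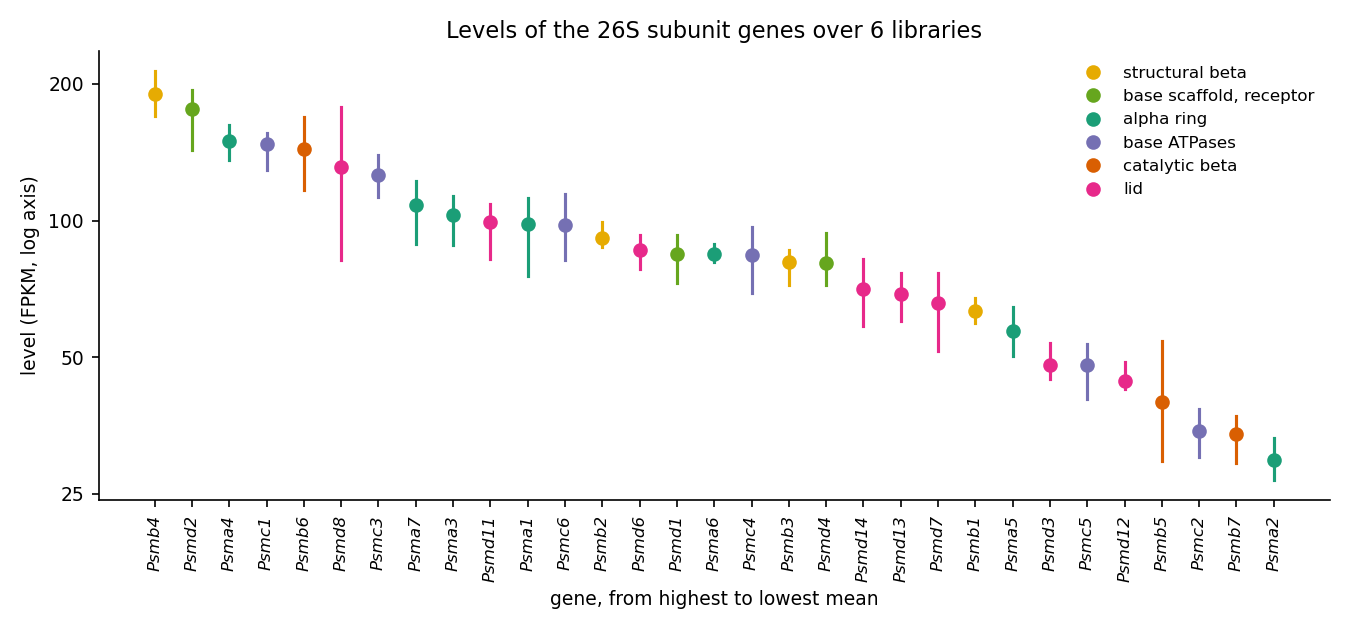
Level in FPKM (log axis) of the 31 genes of the 26S particle, ordered by their mean over 6 libraries and coloured by role. Points are means and vertical lines run from the lowest to the highest library; the order goes from Psmb4 (190 FPKM) to Psma2 (29.7 FPKM), and neighbours overlap.

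The activators lay within the range of the 26S genes. Psme1, Psme2 and Psme4 averaged 111, 109 and 89.97 FPKM in normal livers, and Psme3 averaged 56.2. The base chaperones lay below that range, at 21.5 FPKM for Psmd9, 16.4 for Psmd5 and 4.13 for Psmd10 in normal livers. Psma8, the testis form of Psma7, was listed at 0.272 to 0.957 FPKM. Psmb11, the catalytic subunit of thymic cortex, had 3 reads in each AAV-Ctrl library and 0 reads in the other 4. In normal replicate 1, the 3 reads that a count of 0 still allows equal 0.058 FPKM. Neither gene passed the filter, and neither is counted in the tests below. Over all 6 libraries, the highest value of a tested gene was a median of 1.31 times its lowest. Only 7 of the 38 reached 1.5 times: Psmd8 (2.17 times), Psmd10, Psmb5, Psme1, Psmd5, Psme2 and Psme4 (1.59 times). The narrowest spread was that of the alpha subunit Psma6, between 81.2 and 89.0 FPKM, followed by the structural beta subunits Psmb2 and Psmb1.

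AAV-Ctrl livers were compared with normal livers to see what CCl4 and the control virus did to the proteasome genes. Psmd8, a lid subunit whose yeast counterpart is the last to join the lid, rose 1.79-fold. The base chaperones Psmd5 and Psmd10 rose 1.66-fold and 1.78-fold. These 3 of 38 genes passed and no proteasome gene fell. Over all 13517 genes tested, 18.2% were called higher and 2.28% lower at an adjusted p under 0.05 (limma, Benjamini-Hochberg), so the proteasome genes were called higher at a share below that background. At an unadjusted p under 0.05 there were 11 of them, and 5608 of all genes. In bulk liver, fewer cells of a type and less RNA per cell cannot be told apart, and this holds for every difference below.

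Psmd8 measured 97.6 and 82.1 FPKM in the normal livers, 143 and 178 in AAV-Ctrl, then 137 and 149 in AAV-shPhpt1. All 4 libraries given CCl4 lay above both normal libraries. The log2 difference of AAV-Ctrl from normal was 0.83 ± 0.16 (SE, n = 2 and 2), with an adjusted p of 0.0267 from limma. Relative to Psmd12, another lid subunit, Psmd8 was 2.29 and 1.91 times as high in normal livers and 3.33 and 4.06 times as high in AAV-Ctrl. In AAV-shPhpt1 it was 2.82 and 3.28 times as high. Psmd12 was chosen after values had been seen, and its highest library was only 1.14 times its lowest. These ratios therefore restate the rise of Psmd8. Psmd5, a chaperone that binds the ATPase ring during assembly, measured 17.4 and 15.4 FPKM in normal, 27.1 and 27.4 in AAV-Ctrl, then 24.7 and 24.2 in AAV-shPhpt1. Here too the 4 libraries given CCl4 were above both normal ones. Its log2 difference was 0.70 ± 0.13 (SE), with an adjusted p of 0.0243 (limma). Psmd10, the chaperone also known as gankyrin, measured 4.26 and 4.001 FPKM in normal, 6.93 and 7.75 in AAV-Ctrl, then 7.90 and 6.95 in AAV-shPhpt1. It was the lowest of the 38 genes, and both groups given CCl4 stood apart from normal. Its log2 difference was 0.70 ± 0.17 (SE), with an adjusted p of 0.0381 (limma). The third base chaperone, Psmd9, measured 21.7 and 21.2 FPKM in normal and 21.02 and 18.5 in AAV-Ctrl, a difference of -0.12 on the log2 scale that did not pass. Psmd9 shares 25.5% of its exonic bases with Gm26745 on the opposite strand, and the sources used here do not say whether the counting used strand.

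These 3 calls rest on small groups and on the scale of the table. Without normal replicate 1, normal replicate 2, AAV-Ctrl replicate 1 or AAV-Ctrl replicate 2, none of the 3 passed, with adjusted p from 0.0718 to 0.215 and log2 differences from 0.62 to 0.98. The median of all genes tested was 0.35 higher in AAV-Ctrl than in normal on the log2 scale. With every library centred on its own median, no proteasome gene was called higher or lower, and the differences of Psmd8, Psmd5 and Psmd10 became 0.38, 0.25 and 0.25. None was called with quantile normalization either, where they became 0.74, 0.37 and 0.18, or with no filter on low values, where their adjusted p were 0.0717, 0.0597 and 0.0843. With limma-voom Psmd10 alone was lost, with an adjusted p of 0.0546.

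**Figure D2:**
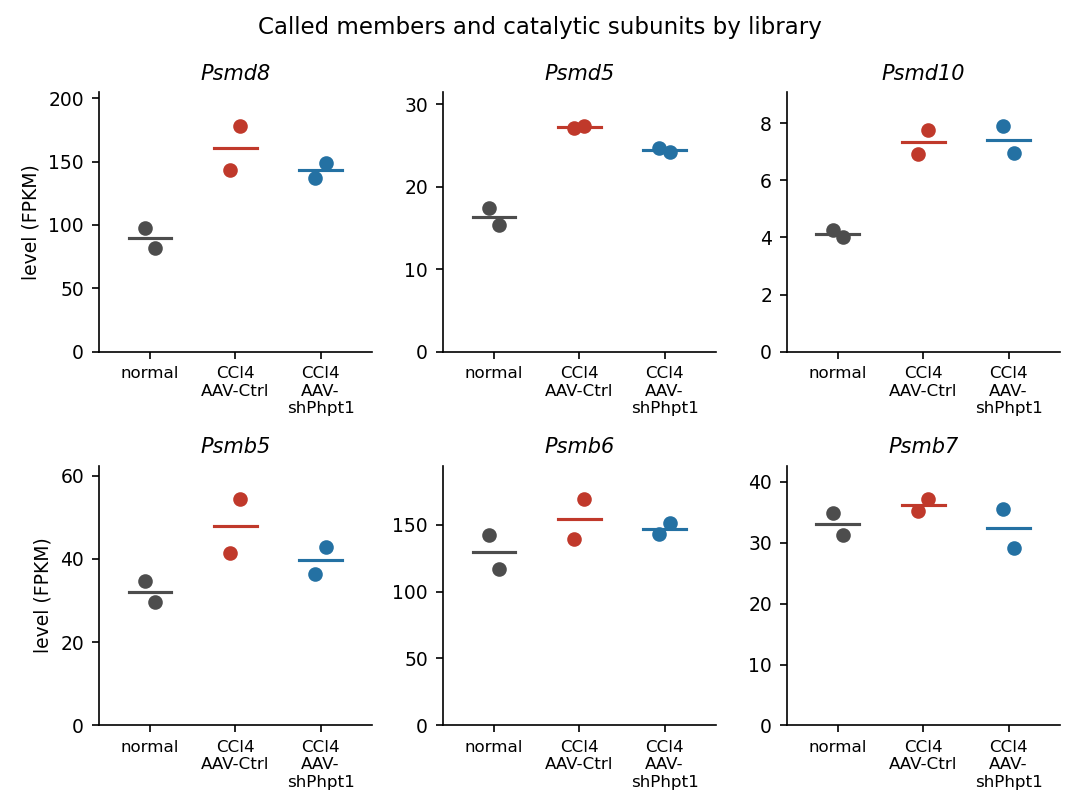
Level in FPKM (linear axes from 0) of Psmd8, Psmd5 and Psmd10, which rose in AAV-Ctrl, and of the catalytic subunits Psmb5, Psmb6 and Psmb7. Points are single libraries and bars are means of 2; in the upper row all libraries given CCl4 lie above both normal libraries, and in the lower row the groups of Psmb6 and Psmb7 overlap or nearly touch.

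The other members were described against that general shift. The median log2 difference of the 38 genes was 0.19, with the central quartiles at 0.07 and 0.36, against 0.35 for all genes tested. On the deposited scale, 10 lay above the median of all genes and 28 below it. This placing depends on the processing. With quantile normalization the members' median was 0.09 against -0.04 for all genes, and with no filter 0.19 against 0.09, so that the members lay above. With centring it was -0.26 against -0.10, so that its sign also depends on the scaling. In 21 of the 38 genes both AAV-Ctrl libraries were above both normal libraries, a pattern found in 60% of all genes. Psmd9 alone showed the opposite order, found in 12.5% of all genes. The normal libraries differed from each other as well. Relative to the mean of the normal group, the members' median was 0.08 in normal replicate 1 and -0.08 in replicate 2, then 0.14 and 0.26 in AAV-Ctrl, then 0.14 and 0.19 in AAV-shPhpt1.

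**Figure D3:**
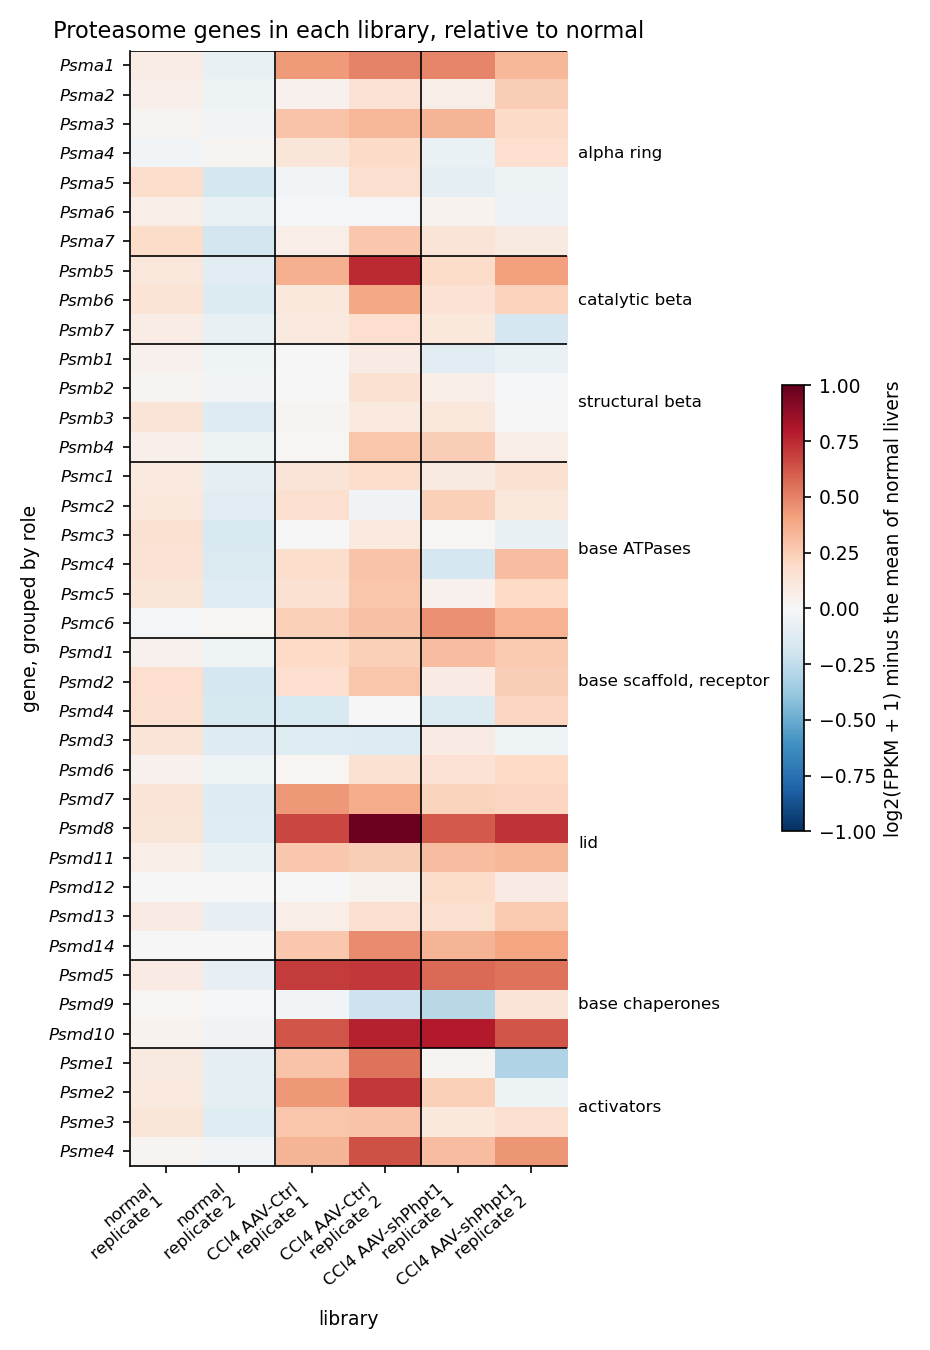
Difference of each library from the mean of the normal libraries on the log2(FPKM + 1) scale (colour) for the 38 genes tested (rows, grouped by role) in 6 libraries (columns). Psmd8, Psmd5 and Psmd10 are red in all 4 libraries given CCl4, and normal replicate 1 is slightly above replicate 2 in most rows, with medians of 0.08 and -0.08.

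In the alpha ring, the median log2 difference of the 7 genes was 0.16 and none was called. Psma1 showed the largest, with 83.9 and 75.3 FPKM in normal against 107 and 112 in AAV-Ctrl (0.46 ± 0.13, SE, adjusted p = 0.0532, limma). Psma3 followed with 0.31 ± 0.12 (SE), and 3 of the 7 genes lay wholly above normal, against the 60% of all genes with that order. Psma6 was at the other end, with 89.0 and 81.2 FPKM in normal, 83.7 and 84.2 in AAV-Ctrl, then 87.0 and 81.4 in AAV-shPhpt1. The 3 groups of Psma6 overlapped, and its log2 difference was -0.02 ± 0.12 (SE).

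In the beta ring, the structural and the catalytic subunits were looked at separately. The structural subunits Psmb1, Psmb2, Psmb3 and Psmb4 had log2 differences from 0.04 to 0.14, and each overlapped with normal. Psmb5, the chymotrypsin-like subunit and target of the drug bortezomib, measured 34.7 and 29.6 FPKM in normal, 41.4 and 54.3 in AAV-Ctrl, then 36.5 and 42.9 in AAV-shPhpt1. All 4 libraries given CCl4 were above the normal ones, with AAV-Ctrl replicate 2 the highest. Its log2 difference was 0.55 ± 0.18 (SE), and the adjusted p of 0.0741 (limma) did not pass. Psmb6, the caspase-like subunit, measured 142 and 117 FPKM in normal and 139 and 169 in AAV-Ctrl, which overlap. Psmb7, the trypsin-like subunit, measured 34.9 and 31.2 FPKM in normal and 35.3 and 37.1 in AAV-Ctrl, which do not. Neither Psmb6 (0.25 ± 0.16, SE) nor Psmb7 (0.13 ± 0.15, SE) passed, and with centring they became -0.20 and -0.32. Psmb5 shares 12.1% of its exonic bases with Mir686 on the same strand, and Psmb7 shares 11.8% with Nek6 on the opposite strand.

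In the base, the 6 ATPases had a median log2 difference of 0.18, between 0.05 for Psmc3 and 0.26 for Psmc6, and none was called. The scaffolds Psmd1 and Psmd2 both stood at 0.22. Psmd4, which catches ubiquitin chains, measured 90.8 and 72.1 FPKM in normal and 72.5 and 80.8 in AAV-Ctrl, within the spread of the normal libraries, for a log2 difference of -0.08 ± 0.18 (SE). Of the 8 lid genes, Psmd8 alone was called (18.2% of all genes were called higher), and 4 lay wholly above normal (60% of all genes). Psmd7, one of the pair of subunits at the centre of the lid, measured 61.7 and 51.6 FPKM in normal and 76.6 and 73.4 in AAV-Ctrl (0.41 ± 0.13, SE, adjusted p = 0.0739). Its partner Psmd14, the enzyme that removes ubiquitin chains, measured 59.1 and 58.7 FPKM in normal and 71.0 and 82.3 in AAV-Ctrl (0.37 ± 0.13, SE, adjusted p = 0.0797, limma). Psmd3 lay lowest in this comparison, with 53.7 and 44.8 FPKM in normal and 45.1 and 44.7 in AAV-Ctrl. Its log2 difference of -0.13 ± 0.14 (SE) was smaller than its error.

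Of the 4 activator genes none was called, and all 4 had both AAV-Ctrl libraries above both normal ones, an order shown by 60% of all genes. Psme1 and Psme2 encode the alternating subunits of the activator PA28. Psme1 measured 118 and 104 FPKM in normal, 135 and 162 in AAV-Ctrl, then 112 and 89.4 in AAV-shPhpt1. Psme2 measured 116 and 101 FPKM in normal, 147 and 178 in AAV-Ctrl, then 128 and 105 in AAV-shPhpt1. Both were thus highest in the AAV-Ctrl livers, with no library of another group above them. Psme3, Psmd5 and Psmd7 showed the same order. AAV-shPhpt1 lay wholly below AAV-Ctrl in 26.2% of all genes. The log2 differences of Psme1 and Psme2 from normal were 0.42 ± 0.17 and 0.57 ± 0.17 (SE), with adjusted p of 0.12 and 0.0583 (limma). Psme2 passed, with an adjusted p of 0.0472, where the fit held the 4 compared libraries alone. Psme3, which forms the nuclear activator PA28 gamma, measured 61.1 and 51.3 FPKM in normal, 68.1 and 68.6 in AAV-Ctrl, then 60.3 and 62.6 in AAV-shPhpt1, and AAV-shPhpt1 overlapped with normal. Psme4, which encodes PA200, measured 91.8 and 88.1 FPKM in normal, 114 and 140.1 in AAV-Ctrl, then 112 and 122 in AAV-shPhpt1. For Psme4 all 4 libraries given CCl4 exceeded the normal ones. The log2 differences of Psme3 and Psme4 from normal were 0.28 ± 0.13 and 0.49 ± 0.15 (SE), with adjusted p of 0.158 and 0.0597 (limma). With centring, Psme1 and Psme3 became -0.04 and -0.17, and Psme2 and Psme4 became 0.12 and 0.03.

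Markers of macrophages and of stellate cells and fibroblasts rose in the same comparison. In AAV-Ctrl against normal, 7 of 10 and 5 of 7 were called higher by limma, against 18.2% of all genes. None of the 6 tested markers of T and NK cells was called, and 1 of the 10 hepatocyte markers was called higher. The 10 macrophage markers, which include Cd68 and Lyz2, summed to between 76.9 and 113 FPKM in normal livers, between 822 and 889 in AAV-Ctrl, then between 211 and 567 in AAV-shPhpt1. The 7 markers of stellate cells and fibroblasts summed to between 39.0 and 50.6 FPKM in normal, between 326 and 375 in AAV-Ctrl, then between 51.0 and 179 in AAV-shPhpt1. The 7 markers of T and NK cells stayed under 21 FPKM in sum, at 4.01 to 4.17 in normal, 11.1 to 12.8 in AAV-Ctrl, then 4.64 to 20.3 in AAV-shPhpt1. The 10 hepatocyte markers summed to between 96390 and 101400 FPKM in normal, 89860 and 89990 in AAV-Ctrl, then 105500 and 151700 in AAV-shPhpt1. The part of these cells in the proteasome differences was not tested.

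AAV-shPhpt1 livers were compared with AAV-Ctrl livers to see what the hairpin added under the same CCl4. No proteasome gene was called by limma, where 0% of all 13517 genes were called in either direction, or by limma-voom on reads recovered from the values. At an unadjusted p under 0.05 there were 2, Psme1 and Psme2, and 1146 of all genes. Psme1 was 1.47-fold lower by its means, 101 ± 16.1 FPKM (SD, n = 2) against 148 ± 19.03. Its log2 difference was -0.55 ± 0.17 (SE), with an adjusted p of 0.512 (limma). Psme2 was 1.40-fold lower, 116 ± 16.6 FPKM (SD, n = 2) against 162 ± 21.9, with a log2 difference of -0.48 ± 0.17 (SE) and an adjusted p of 0.54 (limma). Over all alternatives, with each library left out among them, the log2 difference stayed between -0.72 and -0.39 for Psme1 and between -0.62 and -0.33 for Psme2. For each gene AAV-shPhpt1 replicate 2 was the lowest of the libraries given CCl4, and both AAV-shPhpt1 libraries lay below both AAV-Ctrl libraries. Psme2 divided by Psme1 gave 0.988 and 0.976 for the normal livers, 1.09 and 1.10 for AAV-Ctrl, and 1.14 and 1.17 for AAV-shPhpt1. The macrophage markers were also lower in sum in AAV-shPhpt1, 211 to 567 FPKM against 822 to 889. None of the 10 was called, and 7 lay wholly below AAV-Ctrl, an order shown by 26.2% of all genes. The other 3 overlapped, among them Cd14, with a log2 difference of 0.04. The part of macrophages in the difference of Psme1 and Psme2 was not tested.

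The other members differed by less. The median log2 difference of the 38 genes was -0.05, against -0.07 for all genes tested. Both AAV-shPhpt1 libraries were above both AAV-Ctrl libraries in 5 genes, an order shown by 11.8% of all genes, and below them in 7 genes, shown by 26.2%. The largest positive values belonged to the lid subunit Psmd3 (0.15 ± 0.14, SE), with 52.0 and 47.6 FPKM against 45.1 and 44.7, and to the ATPase Psmc6 (0.14 ± 0.12, SE), with 114 and 106 against 98.1 and 102. Both differences were about as large as their standard errors. Psmd4 (0.12), with 73.7 and 94.0 FPKM against 72.5 and 80.8, and Psmd12 (0.11), with 48.8 and 45.4 FPKM against 42.9 and 43.9, came next. The groups of Psmd4 overlapped and those of Psmd12 did not. On the negative side, after Psme1 and Psme2, were Psmb5 (-0.25 ± 0.18, SE), whose groups overlapped, and Psmd7 (-0.18 ± 0.13, SE), with 66.1 and 65.6 FPKM against 76.6 and 73.4. Psmb6 (-0.06), with 143 and 151 FPKM in AAV-shPhpt1, and Psmb7 (-0.16), with 35.6 and 29.2, overlapped between the groups. Psmd8, Psmd5 and Psmd10, which rose in AAV-Ctrl, differed from it in AAV-shPhpt1 by -0.16, -0.15 and 0.01 on the log2 scale.

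**Figure D4:**
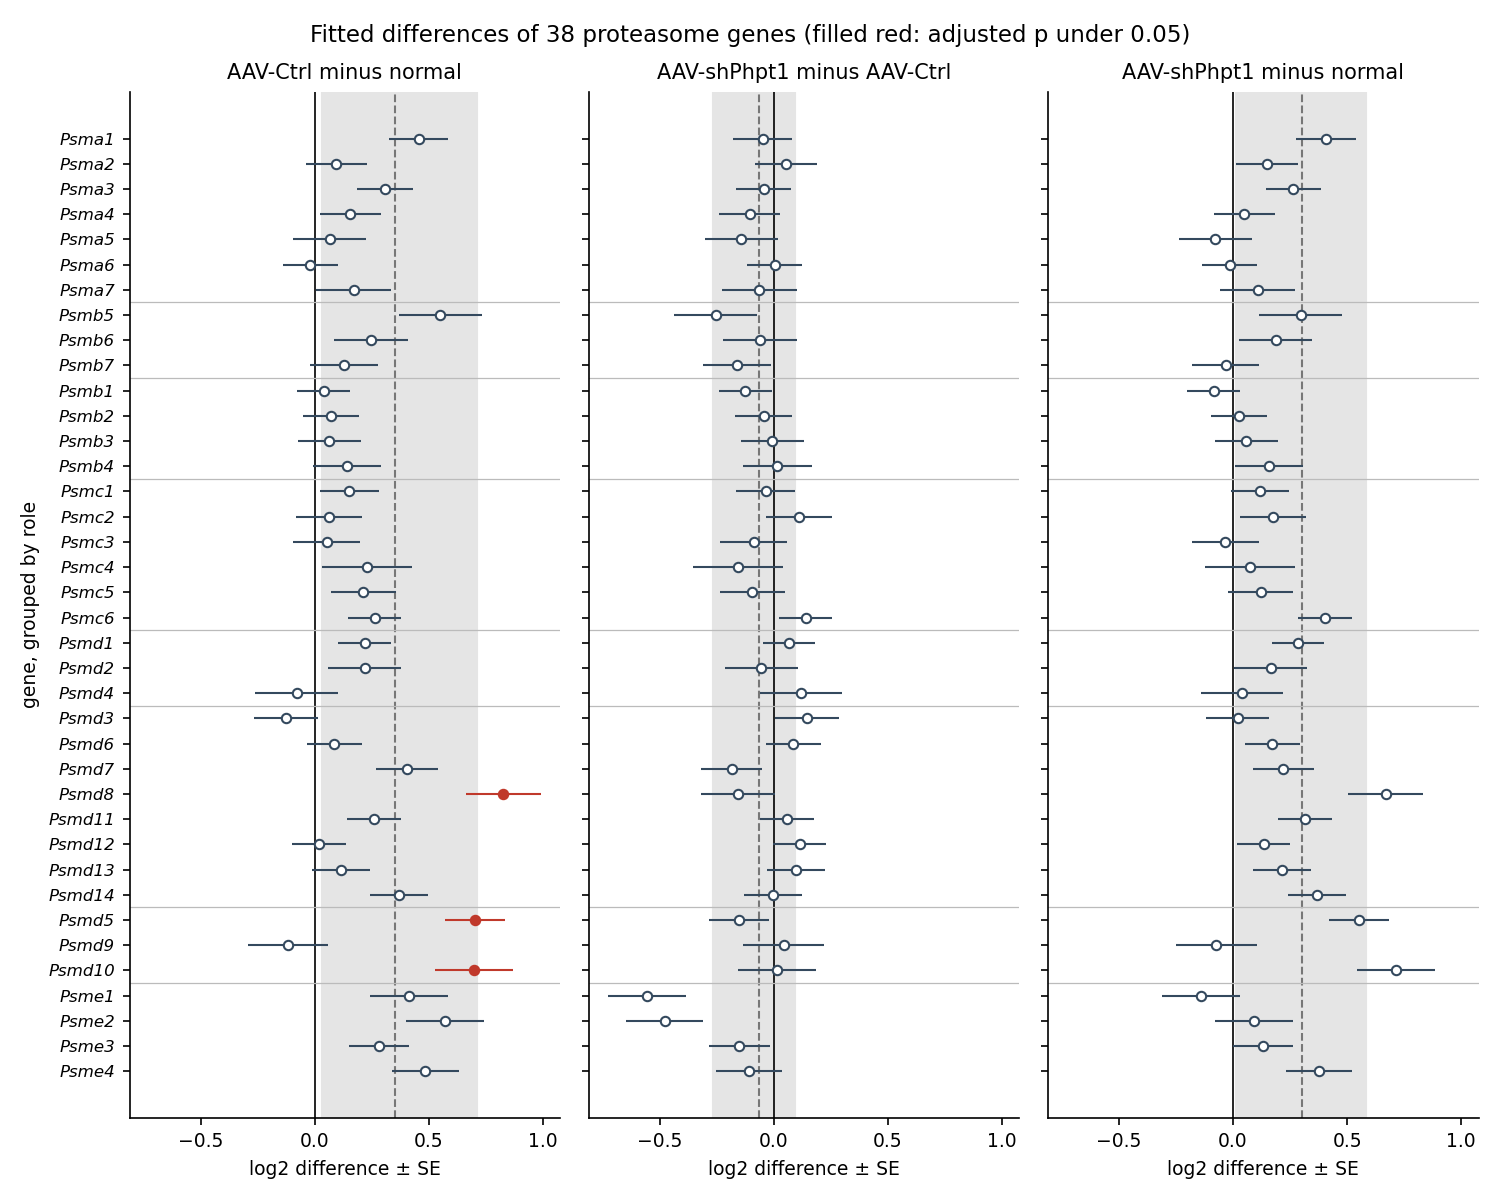
Fitted log2 difference ± SE of the 38 genes, grouped by role, in the 3 comparisons; filled red points have an adjusted p under 0.05. The dashed line is the median and the grey band the central quartiles of all 13517 genes tested. In the first panel 28 genes lie left of the dashed line, and in the second Psme1 (-0.55) and Psme2 (-0.48) lie furthest left.

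AAV-shPhpt1 livers were also set against normal livers. This comparison shares its libraries with the other comparisons and is no separate support for them. None of the 38 genes was called by limma or by limma-voom, whereas limma called 4.34% of all genes, 3.26% higher and 1.07% lower. At an unadjusted p under 0.05 there were 9, and 4282 of all genes. Psmd10, Psmd8 and Psmd5 had the largest differences, 0.71 ± 0.17, 0.67 ± 0.16 and 0.55 ± 0.13 (SE), with adjusted p of 0.066, 0.0683 and 0.0653 (limma). Psma1 came after them at 0.41 ± 0.13 (SE), with 112 and 100.1 FPKM in AAV-shPhpt1. The median over the 38 genes was 0.14, against 0.30 for all genes tested. It was 0.09 against 0.001 with quantile normalization and 0.13 against 0.08 with no filter, so that its place above or below all genes depends on the processing. Both AAV-shPhpt1 libraries exceeded both normal ones in 19 genes, a pattern of 52.2% of all genes, and were below them in 1, Psmb1, a pattern of 12.5%. Psmb1 measured 65.8 and 61.8 FPKM in normal and 59.3 and 60.8 in AAV-shPhpt1, a log2 difference of -0.09 ± 0.12 (SE). Psma5 measured 64.5 and 50.3 FPKM in normal and 53.1 and 54.9 in AAV-shPhpt1, and Psmd9 measured 17.6 and 23.6 in AAV-shPhpt1. Psma5 (-0.08), Psmd9 (-0.07) and Psme1 (-0.14) overlapped with normal. Among the catalytic subunits, Psmb5 (0.30), Psmb6 (0.19) and Psmb7 (-0.03) did not pass. Of the activators, Psme2 (0.09) and Psme3 (0.13) overlapped with normal, whereas Psme4 (0.38 ± 0.15, SE) did not. In this comparison, 7 of the 8 lid genes had both AAV-shPhpt1 libraries above both normal ones, the order of 52.2% of all genes.

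The immunoproteasome subunits, which replace the catalytic subunits in cells exposed to interferon, were set beside Psme1 and Psme2. None of the 3 immunoproteasome genes was called in any comparison. The part of interferon in the levels of these genes, or of Psme1 and Psme2, was not tested. Psmb9 measured 24.4 and 13.5 FPKM in normal, 38.2 and 49.8 in AAV-Ctrl, then 17.8 and 9.78 with the hairpin. Psmb8 was lower throughout, between 4.99 and 15.0 FPKM, and Psmb10 was between 41.3 and 78.2. For all 3 genes both AAV-Ctrl libraries lay above every other library. Of all genes, 60% had AAV-Ctrl wholly above normal, and 26.2% had AAV-shPhpt1 wholly below AAV-Ctrl. For Psmb10 the gap was narrow, 54.2 FPKM in AAV-Ctrl replicate 1 against 53.6 in AAV-shPhpt1 replicate 1. The log2 differences of AAV-Ctrl from normal were 1.21 ± 0.36, 0.87 ± 0.26 and 0.54 ± 0.20 (SE) for Psmb9, Psmb8 and Psmb10. From AAV-Ctrl to AAV-shPhpt1 they were -1.65 ± 0.36, -0.96 ± 0.26 and -0.34 ± 0.20 (SE), with adjusted p from 0.444 to 0.717 (limma). Psmb9 divided by its constitutive counterpart Psmb6 gave 0.172 and 0.116 in normal, 0.275 and 0.295 in AAV-Ctrl, then 0.125 and 0.0646 in AAV-shPhpt1. Psmb8 divided by Psmb5 gave 0.217 and 0.183, then 0.252 and 0.276, then 0.192 and 0.116 in the same order. Both ratios were highest in the AAV-Ctrl livers and lowest in AAV-shPhpt1 replicate 2. Psmb10 divided by Psmb7 exceeded 1 in every library and did not share this order. It gave 1.38 and 1.32 in normal, 1.535 and 2.11 in AAV-Ctrl, then 1.51 and 1.69 in AAV-shPhpt1. AAV-shPhpt1 replicate 2 thus lay above AAV-Ctrl replicate 1, and both AAV-shPhpt1 libraries lay above normal.

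**Figure D5:**
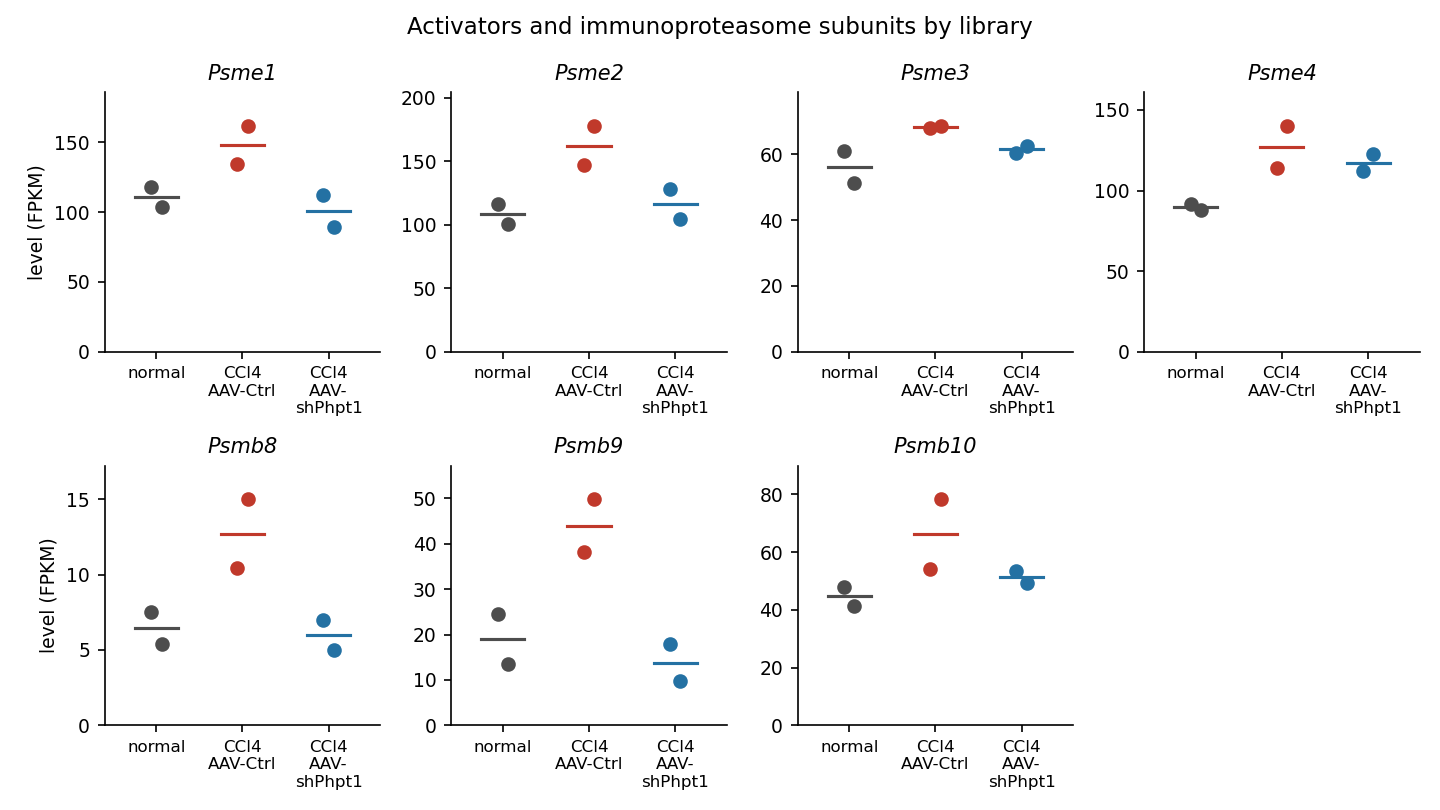
Level in FPKM (linear axes from 0) of the activator genes Psme1 to Psme4 and of the immunoproteasome subunits Psmb8, Psmb9 and Psmb10. Points are single libraries and bars are means of 2. For Psme1, Psme2, Psme3, Psmb8, Psmb9 and Psmb10 both AAV-Ctrl libraries lie above all other libraries, for Psmb10 narrowly (54.2 against 53.6 FPKM).

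Other genes of the pathway were counted in AAV-Ctrl against normal from lists chosen with earlier results of these data known, beside the 18.2% of all genes called higher and the 2.28% called lower. Of 6 genes for assembly of the core and its inhibitor, 1 rose: Pomp, which helps the beta ring mature (0.48 ± 0.12, SE, adjusted p = 0.0395). Pomp measured 63.3 and 58.7 FPKM in normal and 84.9 and 86.1 in AAV-Ctrl. None of 7 subunits and partners of the regulatory particle with other symbols was called, with 3 at an unadjusted p under 0.05. Among the ubiquitin shuttles, which carry tagged proteins to the proteasome, Sqstm1 (0.75 ± 0.19, SE, adjusted p = 0.0435) and Ubqln1 (0.53 ± 0.14, SE, adjusted p = 0.0442) rose. Of 10 genes around Nfe2l1, Syvn1, a ubiquitin ligase of the endoplasmic reticulum, rose (1.12 ± 0.24, SE, adjusted p = 0.0309). Nfe2l1 itself stood at 0.33 ± 0.15 (SE) and did not pass. Of 6 ubiquitin genes and activating enzymes, Uba6 rose (1.07 ± 0.21, SE, adjusted p = 0.0274).

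For scale, another complex of subunits in equal parts was counted in the same way. Of the 8 genes of the chaperonin CCT, which folds actin and tubulin, Cct3, Cct4 and Cct5 rose, and the median was 0.42. Of 75 tested genes of cytosolic ribosomal proteins 17 rose, and the median was 0.48, against 18.2% of all genes called higher and a median of 0.35. The difference between the lists was not tested. Near-identical copies could take reads from a member. A copy with at least 95% identity over at least 200 bases was found for 13 of the 40 genes, 20 copies in all. A level was listed for 19 of the copies. The highest of these, Gm13835, reached 2.97 FPKM, whereas Psma3, the gene it resembles, was never below 88.1 FPKM.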

How the data were processed

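The authors deposited 1 table of gene values for 6 libraries, without naming a unit. They were read as FPKM: scaled by mean annotated transcript length, 94.4% to 94.6% of low deposited values were whole reads within 0.05. The submitters' processing notes name Bowtie 0.12.2 and, as builds, mm8 and mm9, without their roles. The sources used here do not give the counter, strand setting or annotation. The authors' columns sum to different totals. Because values are scaled to the depth of the library, high genes affect the others' values.

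Groups came from the sample titles. Symbols are those of the table, and coordinates and lengths those of GENCODE M21 on GRCm38. Genes whose group mean reached 1 FPKM at least once, 13517 in all, were fitted as log2(FPKM + 1) with limma 3.58.1 (limma-trend, R 4.3.3). One fit held all 6 libraries and gave 3 two-sided comparisons. Calls are at a Benjamini-Hochberg adjusted p under 0.05 over all genes tested. The pseudocount of 1 understates fold changes of low genes, so folds in the text are ratios of mean FPKM. The fit was tested on simulated data. With groups of 2, no permutation of samples can reach 0.05. Copies were found with blastn 2.17.0.

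The members and lists were chosen with earlier results of these data known. Values per library are given for the catalytic subunits and the activators. For the 4 most positive and 4 most negative members of each comparison they are given in the libraries compared. Other members that are named were chosen after their values were seen. Of other lists, up to 3 genes that passed are named. One result of the shuttle list is not reported here. Alternatives were 2 other pseudocounts, no filter, median centring, quantile normalization, limma-voom on recovered reads, a fit on the compared libraries alone, a replicate block, and each library left out.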

Additional observations from a re-analysis of the deposited data

How the results depend on the processing

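In AAV-Ctrl against normal, 3 proteasome genes were called. The count was 0 with no filter, with median centring and with quantile normalization, and 0 to 3 with each library left out in turn, where it was 0 for each of the 4 libraries compared. It was 2 with limma-voom, where Psmd10 was lost with an adjusted p of 0.0546. The fit on the 4 compared libraries called 4, adding Psme2. Both other pseudocounts left it at 3. Fewer libraries, or more genes tested with no filter, enter those fits by their construction, and for the other settings the cause was not tested. Psmd8, Psmd5 and Psmd10 stayed positive in all 14 alternatives. The count stayed at 0 in the other comparisons under every alternative run. The median of the members in AAV-Ctrl against normal was 0.09 with quantile normalization and, without normal replicate 2, 0.09 as well. In AAV-shPhpt1 against AAV-Ctrl it was 0.06 with centring and 0.05 with quantile normalization, so its sign depends on the scaling. Against normal it was -0.21 with centring. Samples that share a replicate number are not labelled as paired, and their deviations correlated by 0.04 to 0.15, below 0.1 in 2 of 3 pairs of groups. With the replicate block, 2 members were called in AAV-Ctrl against normal and 0 in the other comparisons. Psmd10 had an adjusted p of 0.0607 there. Depth limits what can be said of Psma8, Psmb11 and Phpt1.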
